A study of Mus musculus with 2 samples.

Results

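Mir451a, Mir144, Mir486 and Mir3107 are the microRNA genes whose products are best known from red blood cells, and their levels in brain tissue are described here. The 4 genes were taken by symbol from the 2202 microRNA genes in the count files, and all 4 were found. The samples are tissue of the hippocampus, labelled as its layer, from male B6CASTF1/J mice aged 36 days, bought from The Jackson Laboratory. These mice are hybrids of the strains C57BL/6J and CAST/EiJ. No treatment or altered gene is named, there is 1 group of 2 libraries, and the labels number these as biological replicates 1 and 2 under a shared donor label. The tissue was profiled without sorting of cells. Whether blood was rinsed out before dissection is not given in the sources used here.

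MicroRNAs are cut from hairpins in longer transcripts and guide Argonaute proteins to messenger RNAs, mainly through their seed, bases 2 to 8. Mir144 and Mir451a are made from a shared primary transcript that the erythroid factor GATA1 switches on. miR-451a is among the most abundant microRNAs of the red cell and is known to protect it from oxidative stress. Its hairpin is too short for Dicer and is cut by Argonaute 2 instead. miR-486 comes from an intron of Ank1, the gene of the ankyrin that anchors the red cell membrane skeleton, and is also known from skeletal muscle and heart. Mir3107, also called mir-486b, is annotated on the opposite strand of the Mir486 hairpin.

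Sequences are shown for the Mir144 and Mir451a locus because they tell which reads can be assigned to it. RefSeq (GRCm38.p6) held entries for 2 of the 4 genes, Mir144 and Mir451a, and for Mir451b, the antisense partner of Mir451a. In the hairpins below, 5′ to 3′, capitals mark the mature microRNAs.
Mir144 hairpin, plus strand, chr11:78073005-78073070: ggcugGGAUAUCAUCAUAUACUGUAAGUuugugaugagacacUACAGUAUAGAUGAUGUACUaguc
Mir451a hairpin, plus strand, chr11:78073170-78073241: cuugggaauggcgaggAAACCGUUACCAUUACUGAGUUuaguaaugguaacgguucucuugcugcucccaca
Mir451b hairpin, minus strand, chr11:78073170-78073241: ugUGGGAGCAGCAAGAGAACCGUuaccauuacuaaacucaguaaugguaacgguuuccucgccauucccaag

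The Mir144 hairpin gives 2 mature arms, and that of Mir451a gives 1. RNAfold, a program that predicts RNA structure, placed the terminal loop of the Mir451a hairpin at its bases 35 to 38. The mature miR-451a covers bases 17 to 38, so it runs to the end of that loop, and 4 of its 22 bases lie in it. The arms of Mir144 lie at bases 6 to 28 and 43 to 62, both outside its predicted 6-base loop at bases 31 to 36. The 66-base Mir144 hairpin had a predicted fold energy of -28.6 kcal/mol, and the 72-base Mir451a hairpin -43.3 kcal/mol.

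The mature sequences below have the seed in capitals.
miR-451a: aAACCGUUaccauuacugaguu
miR-144-3p: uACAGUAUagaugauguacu
miR-144-5p: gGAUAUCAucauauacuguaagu
miR-451b: uGGGAGCAgcaagagaaccgu
No seed is shared among these 4 microRNAs, nor with any other mature microRNA in the RefSeq table. The table holds 1738 mature entries with 1398 different seeds, and 86.6% of the seeds occur under a single name, so this is the usual case there.

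Mir144 (ENSMUSG00000065401.1) and Mir451a (ENSMUSG00000070065.1) lie on the plus strand of chromosome 11 in mm10, with 99 bases between them. Apart from Mir451b, no gene of the GENCODE M21 annotation overlaps either. The nearest other gene is Eral1, a protein-coding gene on the minus strand, 135 bases from Mir451a and 306 bases from Mir144. Mir486 (ENSMUSG00000070084.3, chromosome 8, 23142555 to 23142682, plus strand) lies in an intron of Ank1 on its own strand. Mir3107 (ENSMUSG00000106471.1, chromosome 8, 23142573 to 23142662, minus strand) lies wholly within the span of Mir486, in an intron of the antisense gene Gm15816 on its own strand.

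The 2 loci differ in how well a short read can be placed. No 20-base window of the annotated Mir451a or Mir144 hairpin occurs in another annotated microRNA hairpin. Mir451a and Mir451b have at most 16 bases in a row in common, although they lie on the same bases of opposite strands. Mir486 and Mir3107 have 2 stretches of 22 bases each in common, at bases 33 to 54 and 73 to 94 of the Mir486 hairpin. A read that lies within either stretch matches both hairpins, once on each strand. Reads that match several places are outside the gene counts, so the counts of Mir486 and Mir3107 leave out such reads and are uncertain as levels. The 5p products of the mouse miR-486 hairpins are known to be identical. How many reads of this kind there were cannot be read from the files, in which reads that match several places are given only in total, 40.3% of replicate 1 and 46.5% of replicate 2. Copies outside the annotated microRNA hairpins were not searched.

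**Figure D1:**
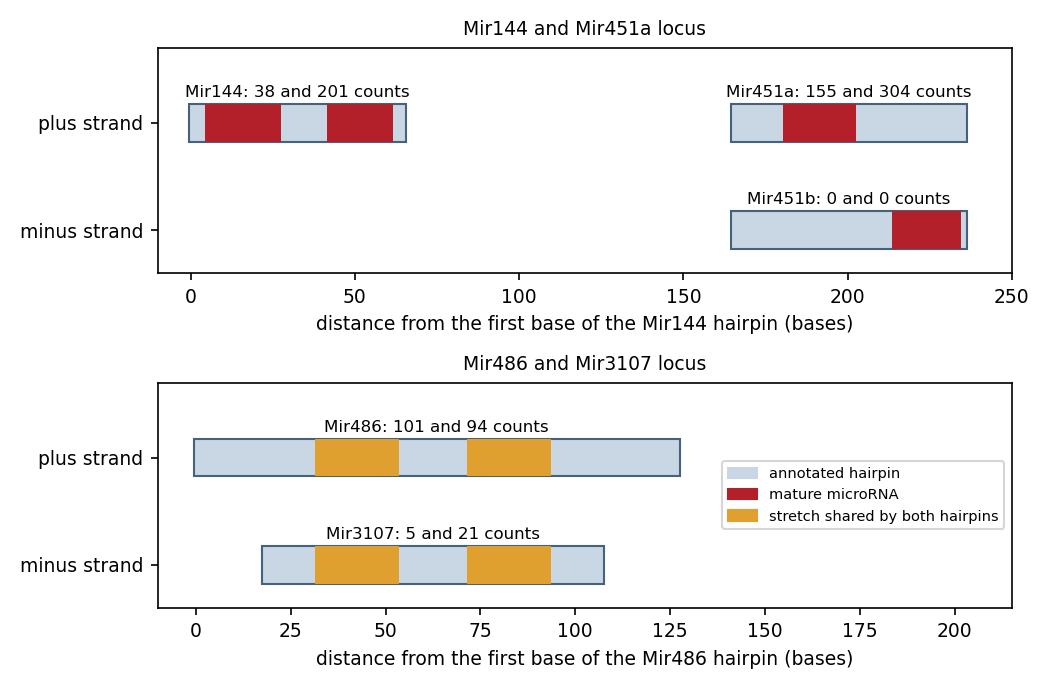
Maps of both loci, with distance in bases from the first base of the Mir144 hairpin (top) or the Mir486 hairpin (bottom) and the strand on the vertical axis. Pale bars are annotated hairpins, red the mature microRNAs in RefSeq and orange the 22-base stretches common to Mir486 and Mir3107; the labels give the counts in replicates 1 and 2. The orange stretches lie on the same bases of both strands, while Mir451b has 0 counts opposite 155 and 304 for Mir451a.

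Own-strand counts over all microRNA genes came to 4404040 in replicate 1 and 5279877 in replicate 2. Levels are given as CPM, the count per 1000000 of these. For genes with 0 counts a floor of 3 counts was set, which is 0.681 CPM in replicate 1 and 0.568 CPM in replicate 2. Intervals of levels are 95% exact Poisson intervals, which for 0 counts reach higher, to 0.838 and 0.699 CPM. They and these floors reflect counting error alone, because amplified reads carry no molecular identifiers. The neuronal markers Mir127, Mir132 and Mir128-1 were abundant, and the neuronal list of 7 genes took 8.55% and 8.89% of the counts, most of it from Mir127. The genes of miR-124, the best known neuronal microRNA, were near 0: Mir124a-1 had 11 and 8 counts, Mir124a-2 1 and 1, and Mir124a-3 0 in both. They are copies with an identical mature microRNA, so reads common to them are outside the counts. Only the other 4 neuronal genes could therefore be set beside the tissue label, and with no second tissue they cannot test it. Mir128-1 and Mir128-2 among these are also copies, so their counts may lack common reads too.

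By counts, which for Mir486 and Mir3107 lack the reads common to both, Mir451a was the highest of the 4 genes in both libraries. It had 155 counts in replicate 1, or 35.2 CPM (29.9 to 41.2), and 304 counts in replicate 2, or 57.6 CPM (51.3 to 64.4). The intervals do not overlap, and the mean was 46.4 ± 15.8 CPM (SD, n = 2). It ranked 239 and 233 among the 2202 genes.

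Mir144, its partner in the primary transcript, had 38 counts in replicate 1, or 8.63 CPM (6.11 to 11.8). In replicate 2 it had 201 counts, or 38.1 CPM (33.0 to 43.7). Its mean of 23.3 ± 20.8 CPM (SD, n = 2) therefore rests on unequal libraries, with a rank of 316 in replicate 1 and 251 in replicate 2. The counts are per gene, so miR-144-3p and miR-144-5p, whose sequences are given above, cannot be separated.

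In reads that could be placed, Mir486 was the steadiest. It had 101 counts in replicate 1, or 22.9 CPM (18.7 to 27.9), and 94 in replicate 2, or 17.8 CPM (14.4 to 21.8), with a mean of 20.4 ± 3.63 CPM (SD, n = 2). The intervals overlap. Mir3107 was the lowest, with 5 counts or 1.14 CPM (0.369 to 2.65) and 21 counts or 3.98 CPM (2.46 to 6.08). Its mean was 2.56 ± 2.01 CPM (SD, n = 2), and its intervals overlap too.

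**Figure D2:**
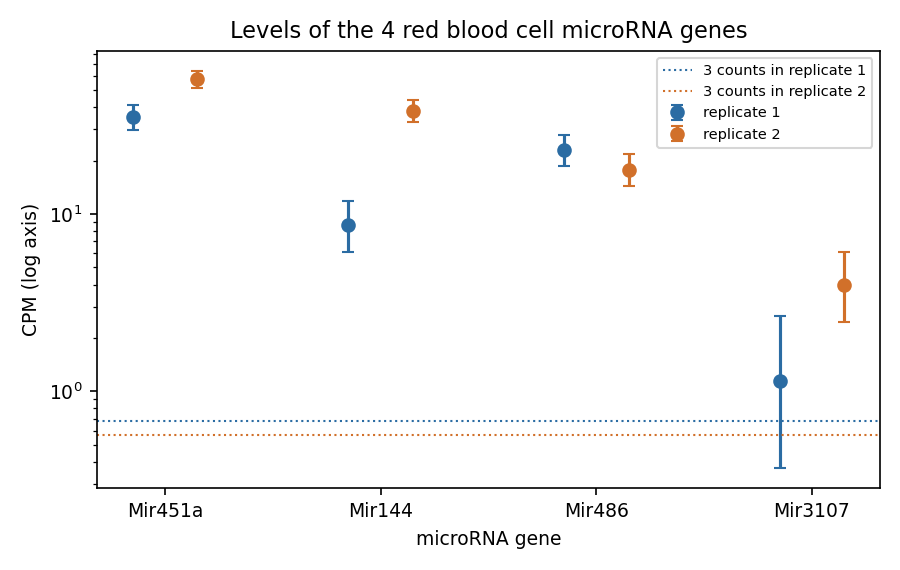
CPM of each gene on a log axis, with replicate 1 in blue and replicate 2 in orange; bars are 95% exact Poisson intervals, and dotted lines mark 3 counts. Mir451a is highest in both libraries at 35.2 and 57.6 CPM. Mir144, at 8.63 and 38.1 CPM, lies below Mir486 in replicate 1 and above it in replicate 2. Counts of Mir486 and Mir3107 leave out reads common to both.

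In these counts the order was thus Mir451a, Mir486, Mir144 and Mir3107 in replicate 1 and Mir451a, Mir144, Mir486 and Mir3107 in replicate 2. The counts of Mir486 and Mir3107 leave out reads common to both, so the places of these genes in it are uncertain. By mean CPM, Mir144 and Mir486 are neighbours that differ by less than the spread of Mir144 between the libraries, while the means of Mir451a and Mir144 differ by more than the SD of either. Among the 504 genes with 10 or more counts in total, whose median level was 36.4 CPM, 269 had a mean below that of Mir451a, 230 below Mir144, 224 below Mir486 and 96 below Mir3107. The 4 genes summed to 67.9 CPM in replicate 1 (95% Wilson interval 60.6 to 76.0) and 117 CPM in replicate 2 (109 to 127), or 0.00679% and 0.0117% of the counts.

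Genes at the closest levels in the 2 libraries, by distance in log2(CPM + 1), were looked up for each of the 4. For Mir451a these were Mir467c (172 and 310 counts), Mir8112 (157 and 268) and Mir18 (143 and 275). For Mir144 the closest was Mir677, with 41 and 218 counts, at a distance of 0.15. Mir1930 and Mir183 followed at 0.45 and 0.68. For Mir486 they were Mir3547 (94 and 84 counts), Mir5099 (91 and 78) and Mir193a (92 and 114), and for Mir3107 Mir1b (5 and 18), Mir6976 (5 and 17) and Mir205 (4 and 15). With 2 libraries, likeness here means a like level and no more.

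Within a library, ratios of counts between the genes are free of library scaling. Capture efficiency by sequence is unknown, so they need not be ratios of molecules. Counts of Mir486 and Mir3107 also leave out reads common to both, so ratios to Mir486 compare placed reads only. Mir451a had 4.08 times the counts of Mir144 in replicate 1 (95% exact binomial interval 2.84 to 5.98) and 1.51 times in replicate 2 (1.26 to 1.82). Mir451a exceeded Mir144 in both, but the intervals do not overlap, although both are cut from a shared transcript. Mir451a also exceeded Mir486, by 1.53 times in replicate 1 (1.19 to 1.99) and 3.23 times in replicate 2 (2.56 to 4.12). The ratio of Mir144 to Mir486, added after the values were seen, was 0.376 in replicate 1 (0.252 to 0.551) and 2.14 in replicate 2 (1.67 to 2.76), on opposite sides of equal counts.

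**Figure D3:**
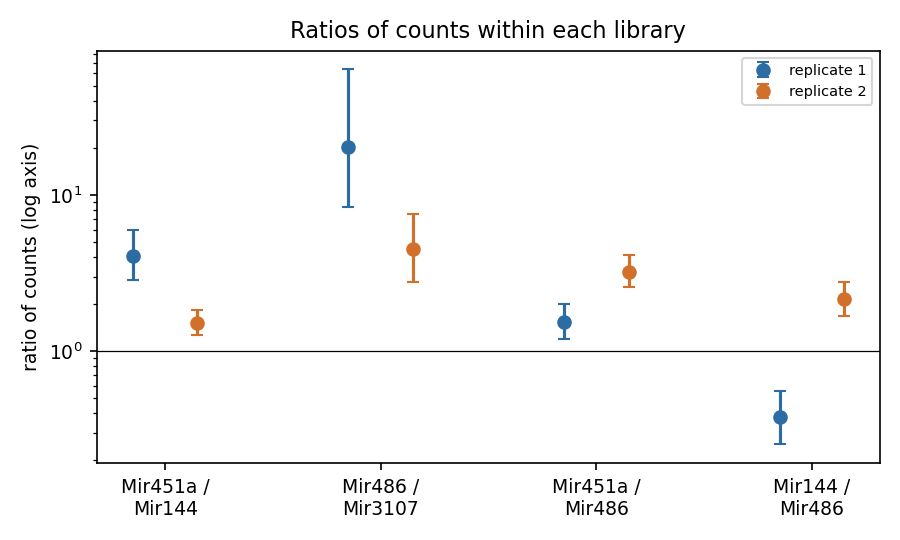
Ratio of counts between pairs of the genes within each library, on a log axis, with replicate 1 in blue, replicate 2 in orange and 95% exact binomial intervals as bars. The line marks equal counts. Mir144 to Mir486 falls on either side of it, at 0.376 and 2.14, and the other 3 ratios stay above it in both libraries. Counts of Mir486 leave out reads that also match Mir3107.

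The strands of each locus were unequal. Of the reads placed at the Mir486 locus, Mir3107 held 5 of 106 in replicate 1, or 4.72% (95% Wilson interval 2.03 to 10.6). It held 21 of 115 in replicate 2, or 18.3% (12.3 to 26.3). Mir486 exceeded Mir3107 by 20.2 times (95% exact binomial interval 8.38 to 63.6) and 4.48 times (2.77 to 7.57). At the other locus Mir451b (ENSMUSG00000104813.1) had 0 counts in both libraries, against 155 and 304 for Mir451a on the same bases, and no count lay opposite Mir144.

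Other microRNA genes that overlap on opposite strands were looked at in the same way. Of 32 such pairs in the annotation, 26 had 100 or more counts, and in 17 of these the weaker gene had 0 counts. Mir3107, with 11.8% of the pair's summed counts, had the second highest weaker share of the 26, after 29.9% for Mir3074-1 and Mir24-1. Mir486 and Mir3107 were also the pair with the longest stretch in common, 22 bases against a median of 9.50. Only 3 of the 26 pairs share 20 bases or more. Mir299a and Mir299b share 21 bases, and there the weaker gene held 0.0899% of the counts.

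The files also hold a column that counts both strands together and sets aside reads over 2 genes. The red cell genes are mostly lost there: Mir451a, Mir486 and Mir3107 have 0 counts in both libraries, while Mir144, which overlaps no gene, keeps its 38 and 201. The 261 and 419 own-strand reads of those 3 genes are a small share of the 295823 and 502531 reads that the column sets aside as ambiguous. The levels given here use the strand of each gene.

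Each gene was then compared between the libraries by an exact conditional binomial test, two-sided, with library sizes adjusted by edgeR's TMM and Benjamini-Hochberg adjustment over all 504 genes with 10 or more counts. It compares these 2 libraries by counting error and not a condition, since there is 1 group. Of the 504 genes, 55.8% passed an adjusted p of 0.05, and 32.5% were higher in replicate 2. Of the 4 genes, 3 were higher in replicate 2 and 1 did not pass, a count too small to be read against so large a share of all genes. Fewer red cells and less RNA per cell cannot be told apart in such bulk tissue.

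Mir144 had the largest difference of the 4, with 38 and 201 counts and a log2 ratio of replicate 2 over replicate 1 of 2.00 (exact binomial test, adjusted p = 4.92e-21). Of the 504 genes, 15 had a log2 ratio at or above this value, Mir144 included. Mir451a, with 155 and 304 counts, had a log2 ratio of 0.68 (adjusted p = 2.03e-06), and Mir3107, with 5 and 21, had 1.21 (adjusted p = 0.0181). Mir486, with 101 and 94, had -0.36 (adjusted p = 0.117). Mir144 and Mir451a were thus both higher in replicate 2, summing to 43.8 and 95.6 CPM. The placed reads of Mir486 and Mir3107 summed to 24.1 and 21.8 CPM. These leave out reads common to both genes, so the difference of that whole locus between the libraries is not known. Over all genes tested the median log2 ratio was 0.05, with quartiles of -0.36 and 0.56.

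The spread that edgeR estimated between the libraries over all genes, a coefficient of variation of 0.426, was far above counting error. It was estimated from the same 2 libraries that the test compares. Few genes can therefore pass with that spread, and the result cannot decide whether a gene differs. With that spread built into the test 3 of the 504 genes passed, and none of the 4 did, with an adjusted p of 0.873 for Mir144 and 1.00 for the others. With a minimum of 100 counts Mir486 passed as lower (log2 ratio -0.49, adjusted p = 0.0178), and Mir3107, with 26 counts, was not tested.

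**Figure D4:**
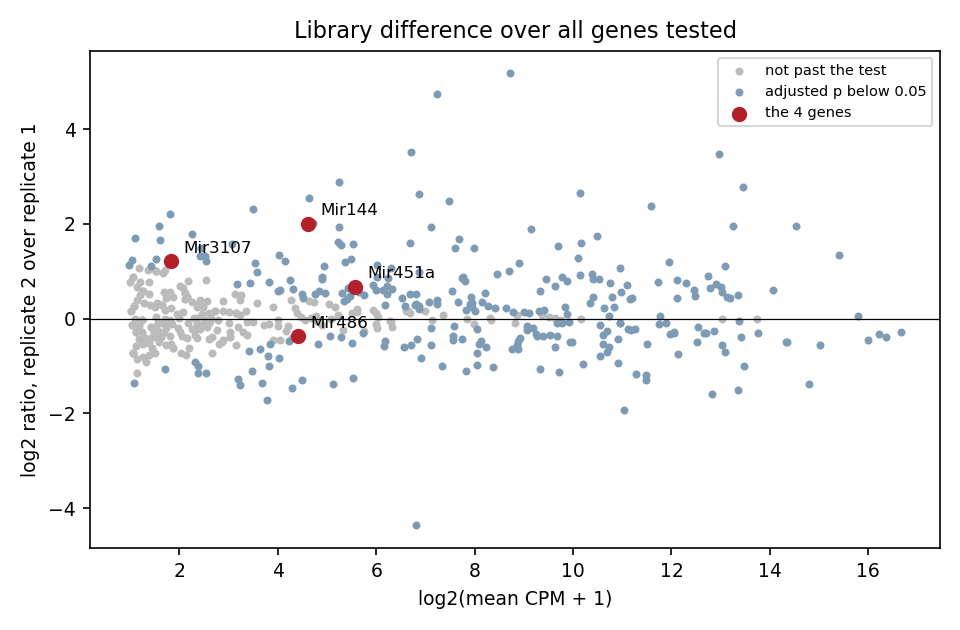
Log2 ratio of replicate 2 over replicate 1 against log2(mean CPM + 1) for the 504 genes tested. Blue points passed the exact binomial test at an adjusted p of 0.05, grey ones did not, and red points are the 4 genes; Mir144 lies at 2.00, Mir3107 at 1.21, Mir451a at 0.68 and Mir486 at -0.36.

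Other microRNAs of blood and vessels give the setting for these levels. The leukocyte list of 6 genes summed to 1559 and 1856 CPM, or 23.0 and 15.8 times the sum of the 4 red cell genes. The red cell sum leaves out reads common to Mir486 and Mir3107, so such multiples hold for placed reads only. Most of the leukocyte sum came from Mir150 (832 and 999 CPM) and Mir146 (634 and 732 CPM, log2 ratio 0.19). Gene for gene, Mir142 (54.0 and 84.1 CPM) lay above Mir451a, the highest of the 4 by counts, at 35.2 and 57.6 CPM. Mir223 (3.18 and 11.6 CPM) lay below Mir451a. Each of them lay below the red cell sum of 67.9 and 117 CPM, which adds up 4 genes. Of the list's 5 tested genes 4 were higher in replicate 2 and 1 lower, where 55.8% of all genes were called and 32.5% were higher. Limited to genes with 100 or more counts in total, which leaves out Mir223 here, 80.5% of all genes tested were called. Mir142, found across blood lineages, had 238 and 444 counts (log2 ratio 0.61), and Mir223, typical of neutrophils and platelets, 14 and 61 (1.57). Mir150, a lymphocyte microRNA, had 3663 and 5277 counts (0.25). Mir155, induced in activated immune cells, had 161 and 150 counts and was lower (-0.37). Mir142b, the antisense partner of Mir142, had 0 counts in both.

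The vessel wall list of 3 genes summed to 16250 and 43835 CPM, which is 239 and 373 times the sum of the 4. That red cell sum again leaves out reads common to Mir486 and Mir3107. Mir126a, the endothelial microRNA, had 42849 and 200301 counts (log2 ratio 1.95). Mir143, of smooth muscle, was lower (-0.17), and Mir145a, from the same cluster, higher (0.18). Of the 3 vessel wall genes 2 were higher in replicate 2 and 1 lower, where 55.8% of all genes tested were called. With counts as high as the 27794 and 29873 of Mir143, small differences pass this test. Of the 4 red cell genes 3 were higher, and Mir486, whose counts lack reads common to Mir3107, did not pass. Whether the amount of blood or of vessel in the tissue samples has a part in the red cell values was not tested.

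A list of 10 genes whose microRNAs are abundant in red cells but made in most tissues summed to 5459 and 6401 CPM. Of these 8 were higher in replicate 2 and 2 lower, with a median log2 ratio of 0.60. The median was 0.94 for the 4 red cell genes and 0.05 for all genes, of which 55.8% were called and 32.5% were higher. In the test limited to the 313 genes with 100 or more counts in total, which include these 10, 80.5% were called. Of those 313 genes 122 were higher and 130 lower. In the list of 10, Mir16-1 (log2 ratio 1.89), Mir15a (1.54) and Mir92-1 (1.17) were among the higher genes, and Mir93 (-0.61) and Mir185 (-0.53) were the lower ones. Mir16-1, Mir16-2, Mir92-1 and Mir92-2 have identical or nearly identical mature microRNAs, so their counts and the median of this list are uncertain. Genes of one cluster differed here too: Mir25 (0.60) and Mir106b (0.28) were higher and Mir93, cut from the same transcript, lower.

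Among 8 genes known to act in or before erythroid differentiation, 4 were higher in replicate 2, 3 lower and 1 did not pass, with a median log2 ratio of 0.12. Over all 504 genes 164 were higher and 117 lower. Mir221 and Mir222, which target the Kit receptor and are lost as red cell precursors mature, had 47783 and 19107 counts and 14582 and 4672 counts. Both were lower in replicate 2, with log2 ratios of -1.60 and -1.92, opposite in sign to Mir144 and Mir451a, and Mir155 was lower too (-0.37). The 4 higher genes, Mir223 (1.57), Mir24-2 (1.20), Mir24-1 (1.10) and Mir150 (0.25), had the same sign as Mir144 and Mir451a. Mir191, whose fall is needed for nuclear expulsion from erythroblasts, had 59918 and 72091 counts (log2 ratio -0.01, exact binomial test, adjusted p = 0.199). Mir150, Mir155 and Mir223 are in this list and in the leukocyte list. Mir16-1, Mir16-2, Mir92-1, Mir92-2, Mir24-1 and Mir24-2 are genes of identical or nearly identical mature microRNAs, so their counts are uncertain.

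Since miR-486 is also a microRNA of muscle, the muscle list was set beside it. Mir206, the skeletal muscle member, had 432 and 566 counts, or 103 ± 6.44 CPM (SD, n = 2), and did not pass the test (log2 ratio 0.11, exact binomial test, adjusted p = 0.342). The other 4 genes, those of miR-1a and miR-133a, had 0 counts in both libraries in 3 cases and 1 and 2 counts in the other. These come in copies with identical mature arms, whose shared reads are not counted, so their counts are not levels. Mir206 alone thus gave 98.1 and 107 CPM of the 98.3 and 108 CPM of the muscle list.

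**Figure D5:**
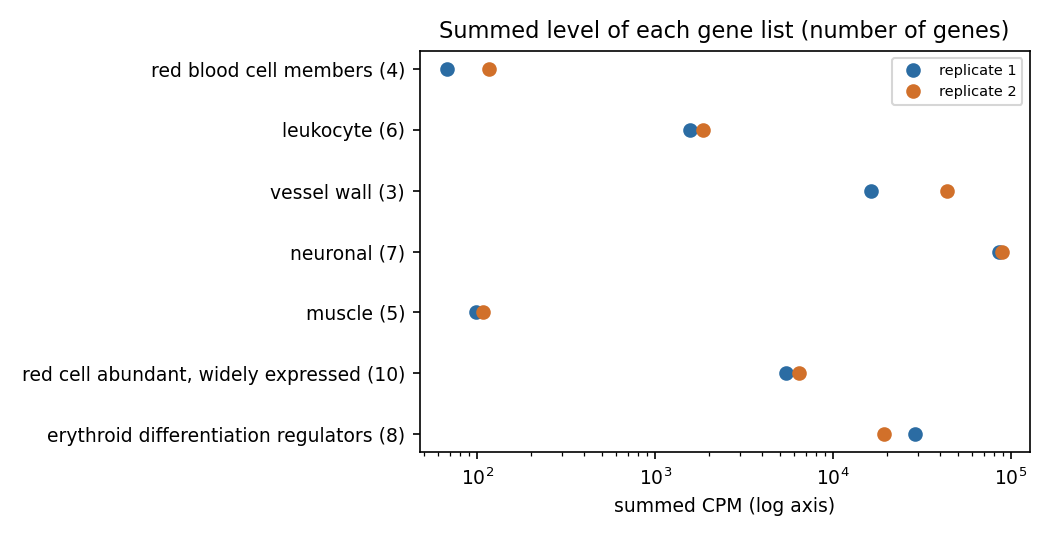
Summed CPM of each gene list on a log axis, with the number of genes in brackets, replicate 1 in blue and replicate 2 in orange. The 4 red cell genes lie at 67.9 and 117 CPM, near the muscle list at 98.3 and 108 CPM, nearly all of it Mir206. They lie below the leukocyte list at 1559 and 1856 CPM, most of it Mir150 and Mir146. The red cell sums leave out reads common to Mir486 and Mir3107.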

How the data were processed

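The authors deposited 1 table of raw counts for each library, not normalized, made on mm10 with GENCODE M21 per the notes beside them. No aligner is given in the sources used here. Columns have no header, and their strands were read from the values. Lines that name no gene (64.7% and 65.4% of reads) were left out. Own-strand counts were used, and CPM divides by their total. TMM factors were 0.994 and 1.01 (edgeR 4.0.16, R 4.3.3), DESeq2 1.42.0 gave other size factors, and 1 CPM was added before log2. The binomial and beta-binomial tests (scipy 1.17.1) were tested on simulated data. edgeR's quasi-likelihood test has no contrast in 1 group. Positions and hairpin overlaps come from GENCODE M21, in which all 2202 identifiers matched, printed sequences from RefSeq GRCm38.p6 and folds from RNAfold 2.7.2.

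The genes and lists were chosen with earlier results of these data known. Genes named are the 4, genes overlapping them, members of the lists and the 3 genes closest in level to each of the 4; overlapping pairs on other strands were named after their values were seen. Mir92a-1, Mir92a-2 and Mir142a were matched under their GENCODE symbols Mir92-1, Mir92-2 and Mir142. The labels number the replicates as distinct tissue samples and do not state that they are different animals. The main p-values set the difference between these 2 libraries against counting error alone, and that difference may be technical. Alternatives were other scalings, count minimums, an added 0.1 CPM, both strands together, per 1000000 of all reads, added spread and each library alone.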

Additional observations from a re-analysis of the deposited data

How the results depend on the processing

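No paired analysis was possible because there is 1 group. With both strands counted together the levels of Mir451a, Mir486 and Mir3107 and the ratio of Mir451a to Mir144 were 0, by construction, and the sum of the 4 genes was 25.7 CPM; the other ratios had no value. Per 1000000 of all reads the levels were 16.2 for Mir451a, 8.12 for Mir144, 7.14 for Mir486 and 0.890 for Mir3107, and the sum was 32.3. From each library alone Mir451a to Mir144 was 1.51 to 4.08, Mir486 to Mir3107 4.48 to 20.2 and Mir451a to Mir486 1.53 to 3.23, against 1.92, 7.50 and 2.35 from both. Built-in spread cut the genes that differ from 281 to 152 at a coefficient of variation of 0.1 and to 3 (2 higher, 1 lower) at edgeR's estimate. edgeR's estimate came from the same 2 libraries, so few genes could pass with it. At that estimate Mir451a (0.68), Mir144 (2.00) and Mir3107 (1.21) no longer passed, and with a minimum of 100 counts Mir486 (-0.49) passed. With that minimum 122 genes were higher and 130 lower, against 164 and 117. The TMM factors were then 0.949 and 1.05, against 0.994 and 1.01. The log2 ratios of Mir451a, Mir144 and Mir486 were 0.55, 1.88 and -0.49, against 0.68, 2.00 and -0.36. The cause of the changed counts was not tested. The sign of each of the 4 log2 ratios was the same under total-count, TMM and DESeq2 scaling, a minimum of 1 count and 0.1 CPM added. Mir3107 rests on 26 counts, which leave out reads that also match Mir486.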
